A study of Homo sapiens with 8 samples.

Results

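Polycomb proteins form 2 families of histone-modifying complexes, and the genes described here encode their subunits together with enzymes that remove the same marks. The set was given as a list of 42 genes by name. It holds PRC2 and PRC1 subunits and accessory factors, H2A deubiquitinase genes and H3K27 demethylase genes, and no expression value was used to compose it. Of these, 35 had a named probe set on the array, of 14884 named genes in all. The other 7 (EED, JARID2, RNF2, BMI1, CBX8, YAF2 and BAP1) had no probe set under their symbol or gene ID and are not analysed here.

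The RNA came from SCC13, an established cell line of human skin squamous cell carcinoma, and each sample is labelled with 1 short hairpin. There were 4 hairpin groups of 2 arrays each: shEZH2, against the PRC2 methyltransferase EZH2; shRING1B, against RING1B (gene symbol RNF2); shBMI1, against BMI1; and shGFP, the control hairpin. The labels do not say how the hairpins were delivered, how long they were expressed, whether cells were clones or pools, or whether the 2 arrays of a group came from separate cultures. The p-values below therefore rest on array-to-array spread that may be only technical. Both shEZH2 arrays carry titles that start SCCL3, where the other 6 start SCC13, while all 8 are given as SCC13 under cell line. Whatever line or handling that prefix may stand for, its effect and that of shEZH2 cannot be told apart. The values are RNA levels per probe set on a log2 scale, on which a difference of 1 is a 2-fold change, and a level is never compared between probe sets of different genes.

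PRC2 places methyl groups on H3K27 through EZH2 or its paralog EZH1, which work only in a complex with EED and SUZ12. PRC1 attaches ubiquitin to histone H2A through RING1B or its paralog RING1, each paired with 1 PCGF protein, of which BMI1 is PCGF4. Canonical PRC1 adds a CBX protein that reads the PRC2 mark and a PHC protein, and variant PRC1 adds RYBP or YAF2 in their place. In epidermal cells both complexes are known for keeping differentiation and cell cycle inhibitor genes silent. Because most catalytic subunits have a paralog, a question the 3 hairpins allow is whether RNA of the remaining subunits was higher when 1 subunit was targeted.

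Across the 35 measured genes, 1 passed the test in any comparison between hairpins, and that was EZH2 itself. EZH2 RNA fell with shEZH2, by 0.91 on the log2 scale against shGFP. No measured paralog of a targeted subunit passed in either direction: EZH1 with shEZH2, RING1 with shRING1B, and PCGF1, PCGF2, PCGF3, PCGF5 and PCGF6 with shBMI1 all had differences from shGFP between -0.064 and 0.037. Among the other genes the widest difference from shGFP was that of CBX6, a chromodomain subunit of canonical PRC1, which was 0.39 higher with shEZH2 and did not pass (limma, adjusted p = 0.0863). The RNA of BMI1 and RNF2 was not measured, so the effect of the shBMI1 and shRING1B hairpins on their own targets is not checked here.

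A gene was called where its limma test had a Benjamini-Hochberg adjusted p under 0.05 over all 14884 genes. In the comparison of shEZH2 with shGFP, 0 of 35 Polycomb genes were called higher, against 0.558% of all genes, and 1 was called lower, against 0.175%. With shRING1B 0 of 35 were called, as were 0% of all genes. With shBMI1 the count was likewise 0 of 35, against 0% of all genes. At an unadjusted p under 0.05, 1 of the 35 was higher and 5 were lower with shEZH2, where 7.53% and 8.65% of all genes were. The same count was 1 higher (4.8% of all genes) and 0 lower (3.8%) with shRING1B, and 0 higher (2.89%) and 0 lower (2.69%) with shBMI1. With 2 arrays a group, an exact two-sided permutation test of 1 gene cannot go below p = 0.333, so every call rests on the variance that limma shares across genes. The 3 comparisons use the same shGFP arrays and are not independent of one another. For some genes below, the 2 arrays of a hairpin are described as the lowest or highest of the 8. How many of all genes show this was not counted. Against shGFP alone, both shEZH2 arrays were below for 27% of all genes and above for 23.1%.

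The promoter windows of the genes with the called or the widest difference are shown first, as the RefSeq sequence (GRCh38.p14) from 250 bases before to 50 after the annotated start. EZH2 lies at chr7:148884242-148884541 on the minus strand, and CBX6 at chr22:38872167-38872466 on the minus strand. Capitals mark TTTGGCGC or TTTCCCGC, 2 spellings of the E2F motif, searched on both strands, with no overlap between them. The genes printed and the motif were chosen after values of these data had been seen.
EZH2: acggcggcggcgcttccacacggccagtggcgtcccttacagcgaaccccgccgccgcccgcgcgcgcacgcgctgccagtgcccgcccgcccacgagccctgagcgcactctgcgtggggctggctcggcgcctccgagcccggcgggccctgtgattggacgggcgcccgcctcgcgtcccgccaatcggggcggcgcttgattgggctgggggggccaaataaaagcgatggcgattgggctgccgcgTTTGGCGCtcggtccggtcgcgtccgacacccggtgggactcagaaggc
CBX6: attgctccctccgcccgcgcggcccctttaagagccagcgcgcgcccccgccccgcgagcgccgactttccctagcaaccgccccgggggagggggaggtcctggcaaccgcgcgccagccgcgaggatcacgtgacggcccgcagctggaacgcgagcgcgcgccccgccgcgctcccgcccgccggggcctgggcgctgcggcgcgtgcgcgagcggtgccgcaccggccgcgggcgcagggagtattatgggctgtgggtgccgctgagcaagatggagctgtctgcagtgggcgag
The EZH2 window shown held the motif once, 1 base after the start; EZH2 has 2 windows in the table, and the other, at chr7:148883436-148883735, held no match. The only CBX6 window held neither spelling. Both windows are rich in CpG, with 46 in that of EZH2 and 47 in that of CBX6.

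EZH2, the catalytic subunit of PRC2, had log2 levels of 8.95 and 9.03 on the shEZH2 arrays. It stood at 9.62 and 9.86 with shRING1B, at 9.74 and 9.93 with shBMI1, and at 9.83 and 9.97 with shGFP. Both shEZH2 arrays lay below the other 6, and the other 3 groups overlapped one another. The mean was 8.99 ± 0.05 with shEZH2 and 9.90 ± 0.10 with shGFP (SD, n = 2 each), a difference of -0.91 ± 0.12 (SE; 95% interval -1.18 to -0.637) or a 1.88-fold decrease (limma, adjusted p = 0.0183). The interval leaves between 0.441 and 0.643 of the shGFP level. The decrease also passed against the other 2 hairpins, at -0.75 against shRING1B (adjusted p = 0.0401, where 0.222% of all genes were called lower) and -0.84 against shBMI1 (adjusted p = 0.021, where 0.282% were). The call against shGFP was lost without either shEZH2 array or either shGFP array (adjusted p = 0.0864 to 0.179), while the difference stayed between -0.98 and -0.84. In bulk RNA, fewer cells expressing a gene and less RNA per cell cannot be told apart.

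**Figure D1:**
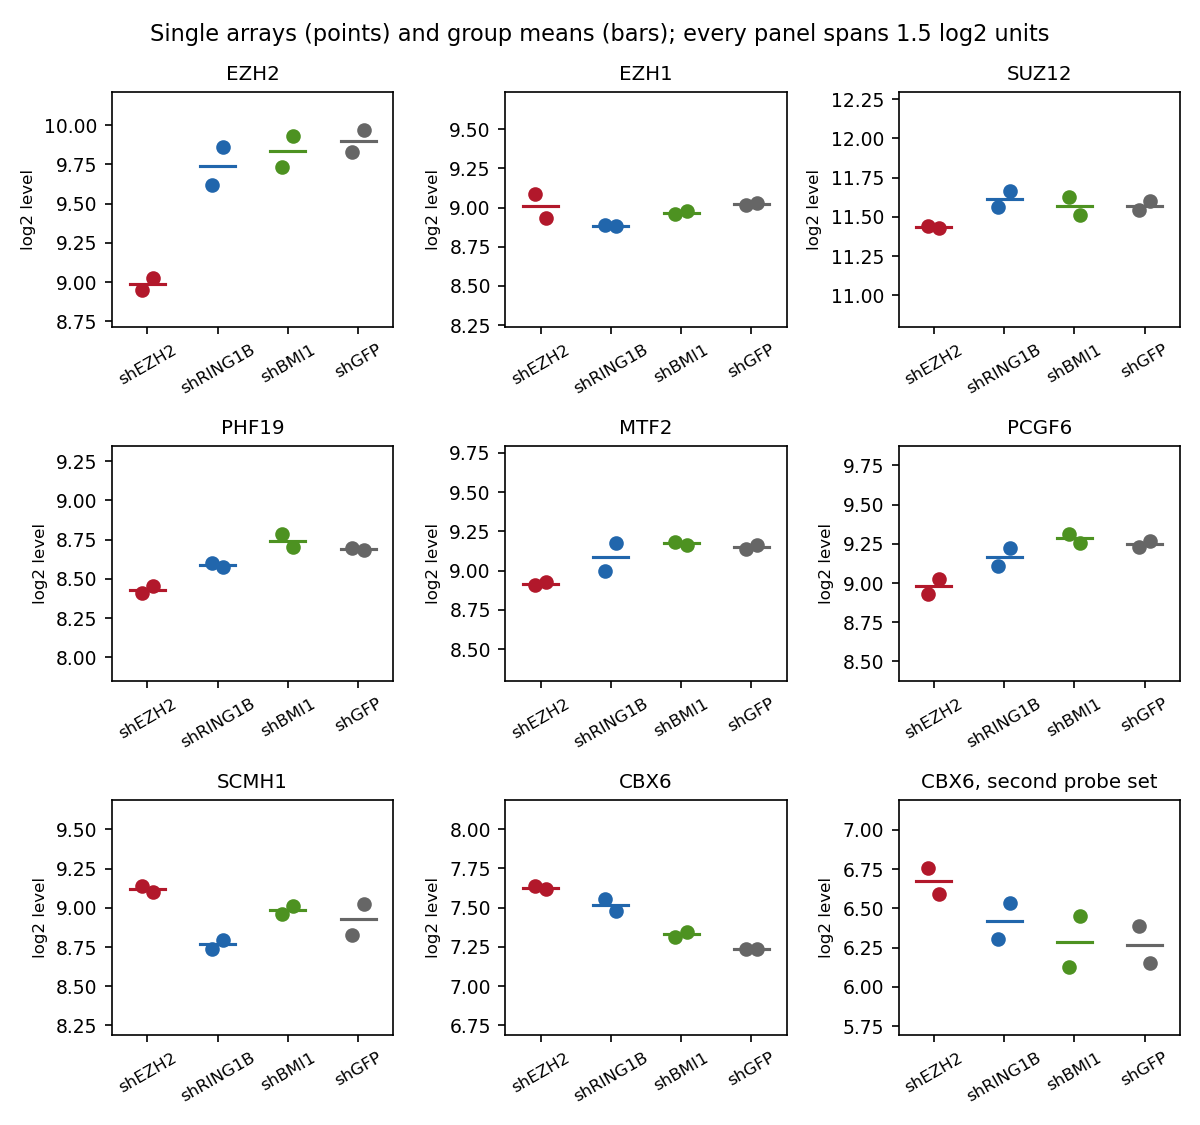
Log2 level (vertical axes, each spanning 1.5 units) of 8 Polycomb genes and of the second CBX6 probe set, for the hairpin groups shEZH2, shRING1B, shBMI1 and shGFP. Points are single arrays (n = 2 each) and bars are group means; the EZH2 points of shEZH2 (8.95 and 9.03) lie below all others, and those of CBX6 (7.64 and 7.62) above all others on its main probe set.

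EZH2 was not called with the hairpins against PRC1. Its difference from shGFP was -0.16 with shRING1B (95% interval -0.431 to 0.112, adjusted p = 0.789) and -0.065 with shBMI1 (-0.336 to 0.207, adjusted p = 0.999).

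EZH1, the paralog that can take the place of EZH2 in PRC2, had levels of 9.09 and 8.93 with shEZH2, 8.89 and 8.88 with shRING1B, 8.96 and 8.98 with shBMI1, and 9.02 and 9.03 with shGFP. The shEZH2 arrays lay on either side of the shGFP arrays. The difference with shEZH2 was -0.01 ± 0.09 (SE; adjusted p = 0.959), and its 95% interval of -0.215 to 0.188 reaches no further than a 1.14-fold increase. With shRING1B both arrays were below both shGFP arrays, by 0.14 on average, and this did not pass (limma, adjusted p = 0.73). Quantile normalization turned the small shEZH2 difference of EZH1 to 0.04.

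SUZ12, the scaffold on which EZH2 is active, had levels of 11.44 and 11.43 with shEZH2, 11.56 and 11.66 with shRING1B, 11.62 and 11.51 with shBMI1, and 11.54 and 11.60 with shGFP. Its shEZH2 arrays were the lowest of the 8, at a difference of -0.14 from shGFP (95% interval -0.338 to 0.0652, adjusted p = 0.485). RBBP4, a histone-binding WD40 protein shared with other chromatin complexes, stood at 9.63 and 9.65 with shEZH2, 9.52 and 9.77 with shRING1B, 9.66 and 9.79 with shBMI1, and 9.73 and 9.67 with shGFP. Its close relative RBBP7 had 10.31 and 10.26 with shEZH2, 10.29 and 10.29 with shRING1B, 10.30 and 10.37 with shBMI1, and 10.32 and 10.42 with shGFP. The differences of RBBP4 and RBBP7 from shGFP with shEZH2 were -0.057 and -0.082, neither of which passed. All 5 measured PRC2 core genes had a negative difference with shEZH2, of which EZH2 alone was called. Under quantile normalization 4 of 5 were negative. Of all 14884 genes 7727 were negative, and 7619 under quantile normalization.

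The PRC2 accessory genes did not pass in any comparison. PHF19, MTF2 and PHF1 encode Polycomb-like proteins that bind DNA and methylated H3K36 and help place PRC2 on chromatin, and AEBP2 encodes a zinc finger subunit of the other PRC2 form. PHF19 had 8.41 and 8.45 with shEZH2, 8.60 and 8.58 with shRING1B, 8.78 and 8.70 with shBMI1, and 8.69 and 8.68 with shGFP. Its shEZH2 arrays were below the other 6, by 0.26 against shGFP (unadjusted p = 0.0137, adjusted p = 0.188) and by 0.31 against shBMI1 (adjusted p = 0.129). MTF2 had 8.91 and 8.93 with shEZH2, 8.997 and 9.18 with shRING1B, 9.18 and 9.17 with shBMI1, and 9.14 and 9.16 with shGFP. Again the shEZH2 arrays were the lowest, at -0.23 from shGFP (unadjusted p = 0.0336, adjusted p = 0.267).

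PHF1 went the other way on its brightest probe set, with 8.36 and 8.37 with shEZH2, 8.30 and 8.35 with shRING1B, 8.46 and 8.34 with shBMI1, and 8.17 and 8.28 with shGFP. Both arrays of each targeting hairpin were above both shGFP arrays, by 0.14 with shEZH2, 0.10 with shRING1B and 0.18 with shBMI1, and none passed. The other 2 PHF1 probe sets disagreed in sign for shEZH2, at -0.057 and -0.069. AEBP2 levels lay between 7.91 and 8.14 on the 8 arrays and its differences from shGFP were 0.076 to 0.087. MTF2, AEBP2 and other genes outside the naming rule were singled out after their values were seen.

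The motif printed above for EZH2 was found in a promoter window of 4 more of the listed genes, shown here with 16 bases on either side and the match in capitals, in gene orientation. They are MTF2 at chr1:93079272-93079311 (plus strand), PHF19 at chr9:120877317-120877356 (minus strand), MGA at chr15:41660666-41660705 (plus strand) and SUZ12 at chr17:31936802-31936841 (plus strand). The match is in 1 of 2 windows of PHF19 and 1 of 3 of MGA, while MTF2 and SUZ12 have 1 window each.
MTF2: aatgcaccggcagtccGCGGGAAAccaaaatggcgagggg
PHF19: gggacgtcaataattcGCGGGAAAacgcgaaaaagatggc
MGA: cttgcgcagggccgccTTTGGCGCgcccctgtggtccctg
SUZ12: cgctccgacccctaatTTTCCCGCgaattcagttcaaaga
RefSeq windows were matched for 39 of the 42 listed genes, 61 windows in all because some genes have several starts; CBX2, CBX8 and BAP1 were not matched. The motif was in 5 of the 61 windows (8.2%), against 797 of 35116 windows of all genes (2.27%) and 620 of 22199 windows of protein-coding genes (2.79%). A broader set of 6 spellings (TTTCGCGC, TTTGCGC, TTCCCGCC and TTGGCGCC added, some of which overlap the others) was also searched and not used for printing. It was in 9 of the 61 windows (14.8%), against 2638 of 35116 (7.51%) and 2093 of 22199 (9.43%). The windows of the listed genes also held a median of 31 CpG and a GC content of 70.3%, against 14 and 58.7% over all genes, so a motif rich in G and C was compared over windows of unequal base composition. With shEZH2 the differences from shGFP of the genes with the motif were -0.91 for EZH2, -0.26 for PHF19, -0.23 for MTF2, -0.14 for SUZ12 and -0.01 for MGA. EZH2 is the target of that hairpin. Genes without either printed spelling were lower too, such as PCGF6 at -0.27 and L3MBTL2 at -0.22. Of the 35 measured genes 25 had a negative and 10 a positive difference, against 7727 and 7157 of all 14884 genes. A part of the motif in these differences was not tested. A match is a spelling in the reference and not a measured binding site.

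Genes of DNA replication and the G1/S transition form a separate list of 24, of which 19 were measured. With shEZH2 all 19 had a negative difference from shGFP, against 7727 of all 14884 genes. Under quantile normalization 18 of 19 did, against 7619 of all genes. Of the 19, 17 had both arrays below both shGFP arrays (27% of all genes did) and 2 were called lower (0.175% of all genes were). These were MCM5 at -0.57 (limma, adjusted p = 0.0312) and MCM10 at -0.53 (adjusted p = 0.0457), both helicase-loading or replication fork factors. The mean level of the list was 9.82 and 9.85 on the shEZH2 arrays, 10.06 and 10.18 with shRING1B, 10.10 and 10.17 with shBMI1, and 10.13 and 10.20 with shGFP. The F test over the 4 hairpins called 0 of the 19 (limma, smallest adjusted p = 0.0566), and 11 had an unadjusted p under 0.05. The median difference of the list was -0.32 with shEZH2, -0.036 with shRING1B and -0.029 with shBMI1, against -0.0085, -0.0028 and -0.0094 over all genes. EZH2 is itself known as a gene whose RNA is high in proliferating cells. The part of these differences in the levels of EZH2, PHF19 and MTF2 was not tested.

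RING1, the paralog of RING1B and the other PRC1 ubiquitin ligase, had 9.79 and 9.78 with shEZH2, 9.92 and 9.83 with shRING1B, 9.73 and 9.85 with shBMI1, and 9.80 and 9.89 with shGFP. The shRING1B arrays overlapped the shGFP arrays. The difference with shRING1B was 0.027 (95% interval -0.179 to 0.233, adjusted p = 0.964), which reaches no further than a 1.18-fold increase. Its 6 probe sets carry identical values and count as 1 measurement.

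The PCGF genes encode the partners that set the kind of PRC1, and BMI1 (PCGF4) and PCGF2 are those of canonical PRC1. PCGF2, the closest paralog of BMI1, had 10.42 and 10.51 with shEZH2, 10.55 and 10.48 with shRING1B, 10.50 and 10.62 with shBMI1, and 10.50 and 10.61 with shGFP. Its difference with shBMI1 was 0.004 (95% interval -0.207 to 0.216), no further than a 1.16-fold increase. PCGF1, which pairs with KDM2B and BCOR, had 8.05 and 8.04 with shEZH2, 8.19 and 7.93 with shRING1B, 8.21 and 8.09 with shBMI1, and 8.18 and 8.12 with shGFP.

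PCGF3 and PCGF5 are close relatives that form AUTS2-containing PRC1. PCGF3 had 8.48 and 8.49 with shEZH2, 8.60 and 8.80 with shRING1B, 8.61 and 8.74 with shBMI1, and 8.64 and 8.74 with shGFP. PCGF5 had 8.50 and 8.50 with shEZH2, 8.51 and 8.90 with shRING1B, 8.53 and 8.60 with shBMI1, and 8.50 and 8.76 with shGFP. PCGF6, which pairs with MGA and L3MBTL2, had 8.93 and 9.03 with shEZH2, 9.11 and 9.22 with shRING1B, 9.32 and 9.26 with shBMI1, and 9.23 and 9.27 with shGFP. With shBMI1 the arrays of all 5 measured PCGF genes overlapped those of shGFP, and the 95% interval that reached highest, that of PCGF5, ended at a 1.20-fold increase.

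With shEZH2 all 5 measured PCGF genes had a negative difference from shGFP, also under quantile normalization and median centring, and 0 of 5 were called. Of all 14884 genes 7727 were negative, 7619 under quantile normalization and 8914 under median centring. The differences were -0.11 for PCGF1, -0.09 for PCGF2, -0.20 for PCGF3, -0.13 for PCGF5 and -0.27 for PCGF6. In 4 of the 5 both shEZH2 arrays were below both shGFP arrays, as was the case for 27% of all genes. PCGF6 had the smallest p among them (unadjusted p = 0.0151, adjusted p = 0.195).

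**Figure D2:**
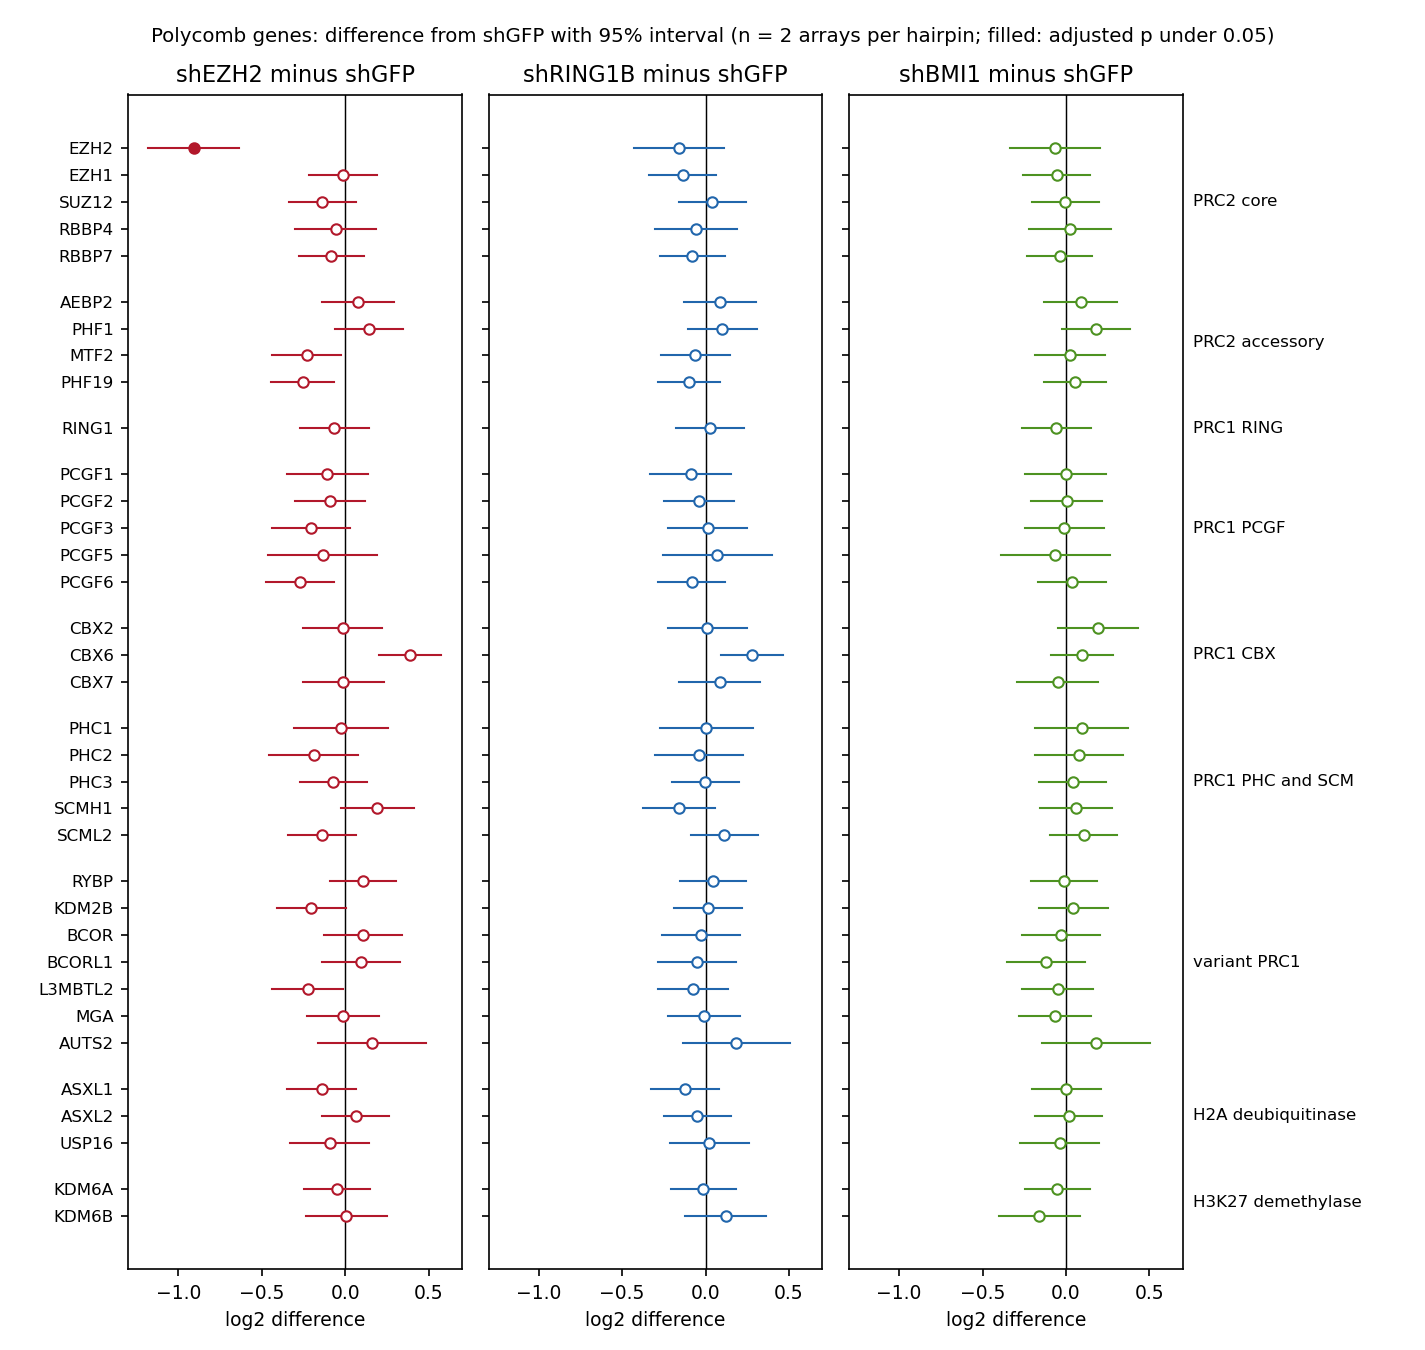
Difference from shGFP (horizontal axis, log2 units) of the 35 measured genes, grouped by role, for shEZH2, shRING1B and shBMI1 from left to right. Points are limma estimates, lines are 95% intervals and a filled point has an adjusted p under 0.05; EZH2 with shEZH2 (-0.91) is the only filled point.

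CBX6 is 1 of the chromodomain proteins through which canonical PRC1 reads methylated H3K27. Its main probe set had 7.64 and 7.62 with shEZH2, 7.55 and 7.48 with shRING1B, 7.31 and 7.35 with shBMI1, and 7.23 and 7.23 with shGFP. The 4 groups did not overlap. The difference from shGFP was 0.39 ± 0.08 (SE; 95% interval 0.205 to 0.577, a 1.31-fold increase, unadjusted p = 0.00125) with shEZH2. It was 0.28 (0.0932 to 0.465, unadjusted p = 0.0085, adjusted p = 0.394) with shRING1B and 0.10 (-0.0903 to 0.282, adjusted p = 0.996) with shBMI1. None of these passed, nor did the difference of 0.30 between shEZH2 and shBMI1 (limma, adjusted p = 0.138).

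The shEZH2 value of CBX6 lay near the threshold. Its adjusted p was 0.0334 when the dimmest 30% of genes were left out and 0.0363 with a trended, robust variance, and 0.0512 to 0.325 under the other alternatives. A second, dimmer CBX6 probe set read 6.76 and 6.59 with shEZH2, 6.31 and 6.54 with shRING1B, 6.12 and 6.45 with shBMI1, and 6.39 and 6.15 with shGFP. On it the shEZH2 arrays were again the highest, at 0.40 above shGFP, while the shRING1B and shBMI1 arrays overlapped those of shGFP, at 0.15 and 0.02.

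The other measured CBX genes are also chromodomain readers. CBX2 had 6.86 and 6.99 with shEZH2, 7.02 and 6.88 with shRING1B, 7.23 and 7.04 with shBMI1, and 6.96 and 6.92 with shGFP. Both shBMI1 arrays were above both shGFP arrays, by 0.19, and this did not pass (limma, adjusted p = 0.931). CBX7, known in many tissues as a repressor of CDKN2A, spanned 0.30 from its lowest to its highest of the 8 arrays, and its differences from shGFP ran from -0.05 to 0.08. The RNA of CDKN2A itself, which encodes a cell cycle inhibitor silenced by Polycomb in many cell types, differed from shGFP by -0.02 with shEZH2, -0.04 with shRING1B and 0.02 with shBMI1; it was the only 1 of 7 listed CDK inhibitor genes that was measured.

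The PHC proteins polymerise through their SAM domain and hold canonical PRC1 together, and SCMH1 and SCML2 are SAM domain proteins that associate with it. SCMH1 had 9.14 and 9.10 with shEZH2, 8.74 and 8.80 with shRING1B, 8.96 and 9.01 with shBMI1, and 8.83 and 9.03 with shGFP. The shEZH2 arrays were the highest of the 8 and the shRING1B arrays the lowest. The differences from shGFP were 0.19 with shEZH2 and -0.16 with shRING1B, and neither passed. Between shEZH2 and shRING1B it was 0.35 (95% interval 0.135 to 0.571, unadjusted p = 0.0057, adjusted p = 0.15), with an adjusted p of 0.0364 under the trended, robust variance.

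SCML2 had 8.51 and 8.48 with shEZH2, 8.70 and 8.79 with shRING1B, 8.80 and 8.68 with shBMI1, and 8.66 and 8.61 with shGFP. Its shEZH2 arrays were the lowest of the 8, and the unadjusted p was 0.0212 against shRING1B and 0.0232 against shBMI1, which did not pass after adjustment. Over the 8 arrays PHC1 lay between 8.73 and 8.99, PHC2 between 7.56 and 7.89 and PHC3 between 8.74 and 8.94. PHC2 was 0.19 lower with shEZH2 than with shGFP (adjusted p = 0.46). The second PHC1 probe set differed from the main one with shEZH2, at -0.32 against -0.03 from shGFP.

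Variant PRC1 genes showed no call. RYBP, the subunit that takes the place of CBX proteins, lay between 9.86 and 10.01 on the 8 arrays. KDM2B, which brings PRC1 to unmethylated CpG islands, had 7.05 and 7.20 with shEZH2, 7.35 and 7.33 with shRING1B, 7.36 and 7.38 with shBMI1, and 7.28 and 7.37 with shGFP. L3MBTL2, a reader subunit of the PCGF6 complex, had 7.61 and 7.55 with shEZH2, 7.82 and 7.64 with shRING1B, 7.74 and 7.78 with shBMI1, and 7.82 and 7.79 with shGFP. The shEZH2 arrays of KDM2B and L3MBTL2 were each the lowest of the 8, at -0.20 (unadjusted p = 0.0533) and -0.22 (unadjusted p = 0.0412, adjusted p = 0.288) from shGFP.

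MGA, the DNA-binding subunit of the PCGF6 complex, had 9.91 and 9.89 with shEZH2, 9.98 and 9.83 with shRING1B, 9.88 and 9.81 with shBMI1, and 9.98 and 9.85 with shGFP. BCORL1, a corepressor of the PCGF1 complex, had 8.29 and 8.27 with shEZH2, 8.13 and 8.15 with shRING1B, 7.96 and 8.18 with shBMI1, and 8.12 and 8.26 with shGFP. AUTS2, the adaptor of the PCGF3 and PCGF5 complexes, had 6.07 and 5.96 with shEZH2, 6.09 and 5.99 with shRING1B, 6.10 and 5.97 with shBMI1, and 6.07 and 5.64 with shGFP. Its differences of 0.16, 0.18 and 0.18 from shGFP with shEZH2, shRING1B and shBMI1 all rested on the second shGFP array, since the first lay within the range of the other groups. BCOR, a related corepressor, lay between 8.75 and 8.98.

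The enzymes that oppose Polycomb did not pass in any comparison either. KDM6B, an inducible H3K27 demethylase, had 7.79 and 7.73 with shEZH2, 8.01 and 7.74 with shRING1B, 7.64 and 7.55 with shBMI1, and 7.77 and 7.74 with shGFP. The shBMI1 arrays were the lowest of the 8, at -0.16 from shGFP (adjusted p = 0.969) and 0.28 below shRING1B (unadjusted p = 0.0282, adjusted p = 0.466). KDM6A, the other H3K27 demethylase measured, was the steadiest of the 35 genes, with a range of 0.14 over the 8 arrays, against 1.02 for EZH2. ASXL1 and ASXL2, partners of the H2A deubiquitinase BAP1, differed from shGFP by -0.14 to 0.06 with any of the 3 hairpins. USP16, another H2A deubiquitinase, differed by -0.09 to 0.02.

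**Figure D3:**
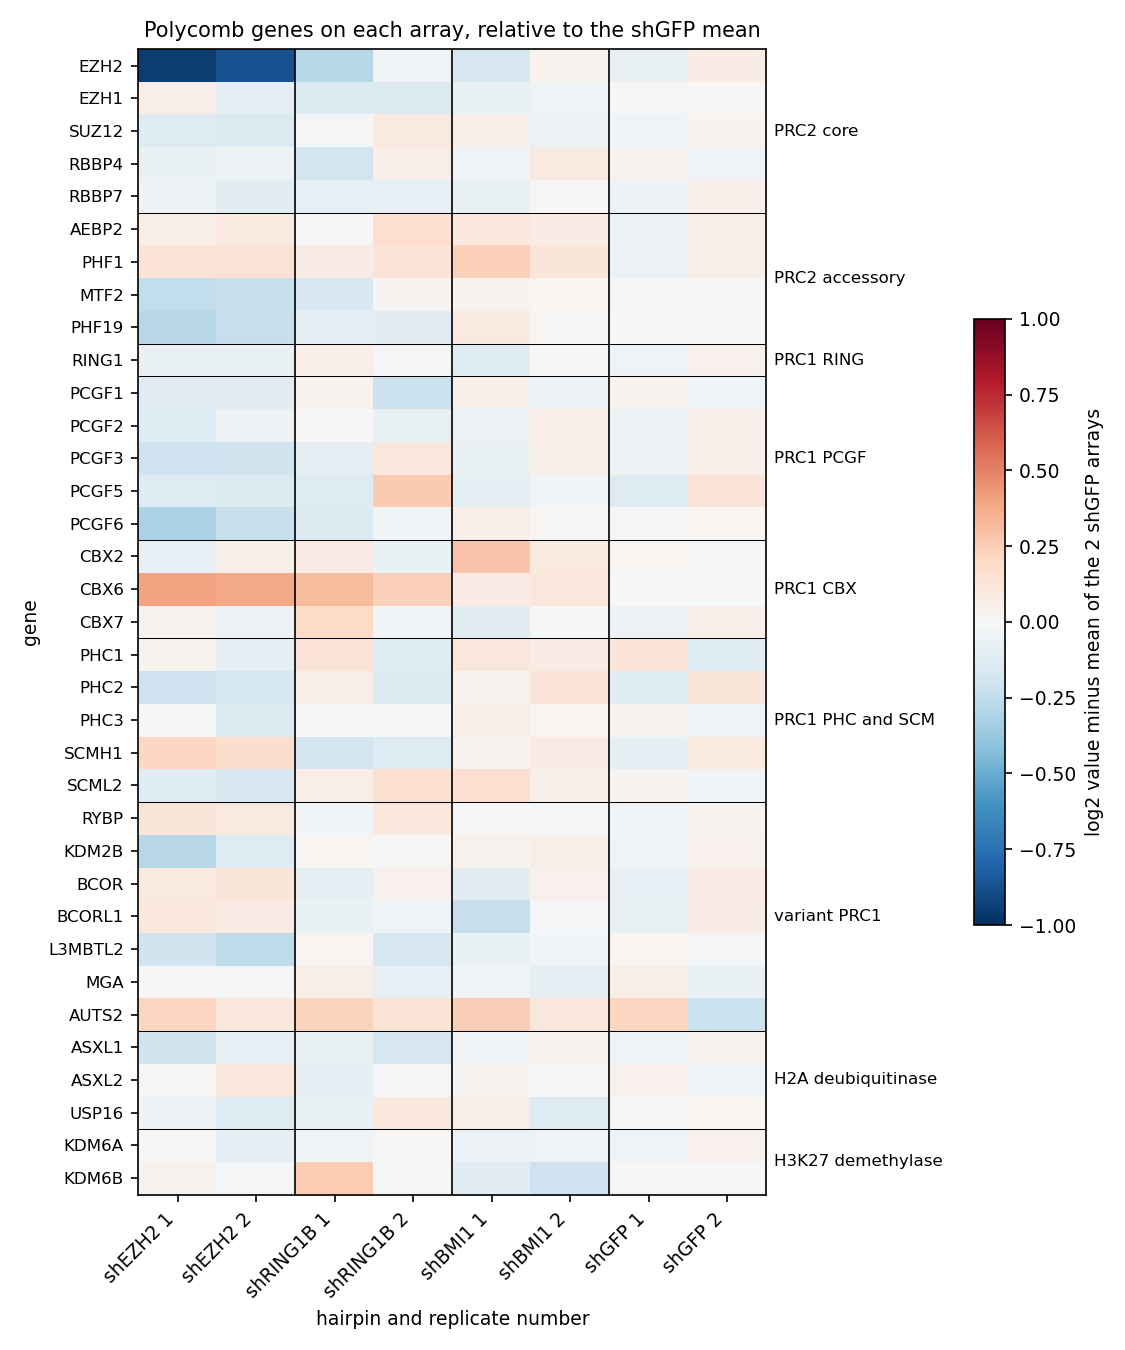
Log2 value minus the mean of the 2 shGFP arrays (colour scale, -1 to 1) for the 35 measured genes (rows, grouped by role) on each of the 8 arrays (columns, by hairpin and replicate number). EZH2 on the shEZH2 arrays is the darkest row segment, and CBX6 is above the shGFP mean on all 6 arrays of the targeting hairpins.

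The differences of the Polycomb genes as a group were set beside those of all genes. With shEZH2 the median absolute difference from shGFP was 0.107 over the 35 genes and 0.125 over all 14884. With shRING1B it was 0.061 against 0.094, and with shBMI1 0.051 against 0.080. The 35 genes were brighter and less variable than all genes. The dimmest were AUTS2, at percentile 36.6 of mean signal, and CBX2, at percentile 52.6. The median interval reached 0.212 to either side of the estimate over the 35 genes, and 0.256 over all genes. The part of signal or spread in the smaller medians was not tested. The signed median with shEZH2 was -0.066, against -0.0085 over all genes. In that comparison 25 of the 35 genes had a negative difference, against 7727 of all 14884. Under quantile normalization 21 did, against 7619 of all genes, and under median centring 26 did, against 8914. Median centring also moved the median over all genes down to -0.047. Both shEZH2 arrays were below both shGFP arrays for 17 of the 35 (48.6%, against 27% of all genes) and above for 6 (17.1%, against 23.1%).

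With shRING1B both arrays were above both shGFP arrays for 3 genes (8.57%, against 18.2% of all genes) and below for 6 (17.1%, against 19.1%). With shBMI1 they were above for 7 (20%, against 14%) and below for 4 (11.4%, against 17.8%). The sign of the median was not stable for these hairpins: it was -0.0078 with shRING1B and 0.003 under quantile normalization. With shBMI1 17 of the 35 genes had a negative difference, and 12 did under quantile normalization, against 7955 and 7437 of all 14884 genes.

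**Figure D4:**
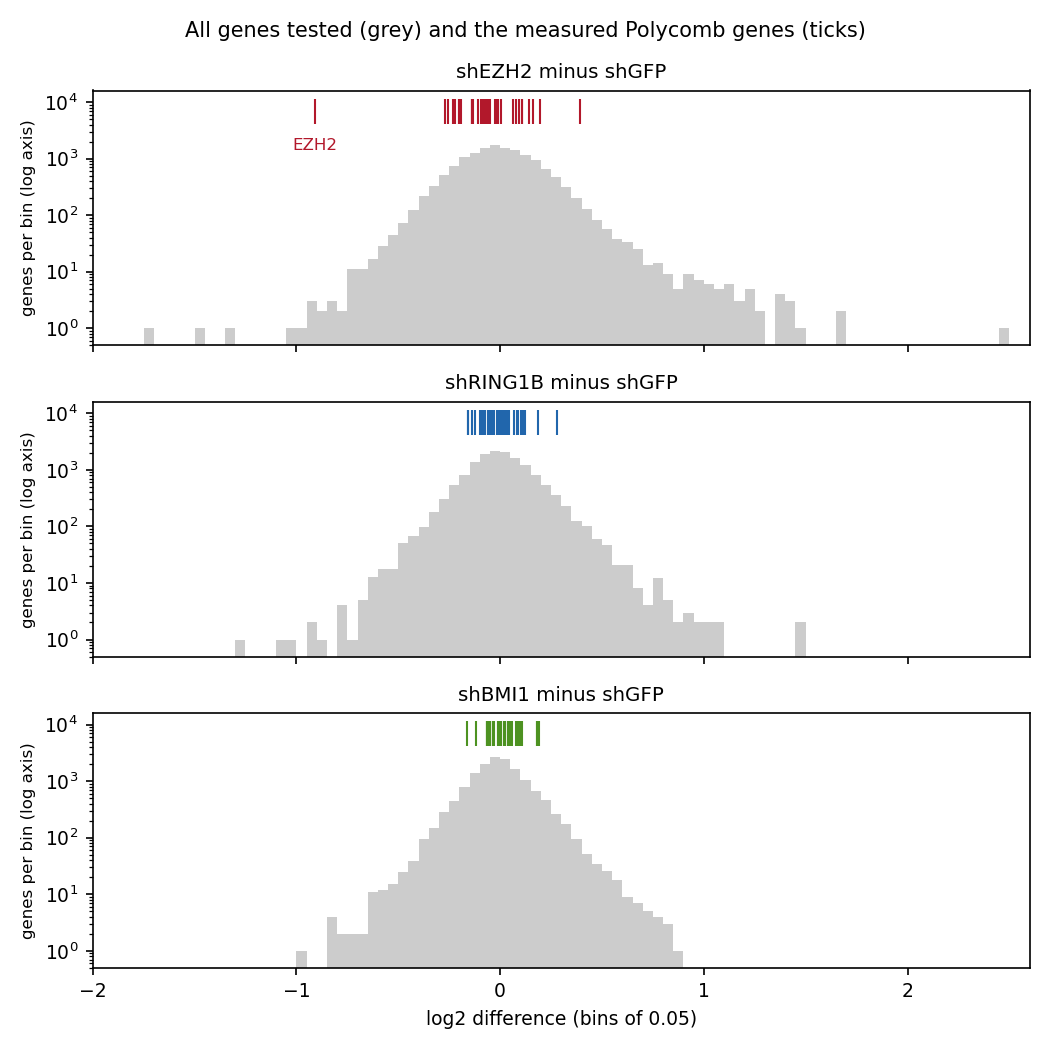
Distribution of the log2 difference from shGFP (horizontal axis, bins of 0.05) over the 14884 genes tested (grey bars, number of genes on a log axis) with the 35 Polycomb genes as ticks above, for shEZH2, shRING1B and shBMI1. EZH2 with shEZH2 stands at -0.91, and all other ticks of the 3 panels lie between -0.27 and 0.39.

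The intervals limit how large an increase may have been missed. For all 35 genes and each of the 3 hairpins, the 95% interval of the difference from shGFP in the main fit ended below a 1.5-fold increase. This limit was not among the planned settings. The highest ends were 1.49-fold for CBX6 with shEZH2, 1.42-fold for AUTS2 with shRING1B and 1.42-fold for AUTS2 with shBMI1. With the mean of the probe sets of a gene, CBX6 was 0.40 ± 0.10 (SE) higher with shEZH2, and its interval passed the limit. Apart from EZH2 with shEZH2, no interval of these comparisons in the main fit reached a 1.5-fold decrease. These bounds hold for the main fit and for each gene alone, on the scale of the array, and for RNA but not protein or complex assembly. They rest on a spread that may be only technical, so variation between cultures may lie outside them. The knockdowns of RING1B and BMI1 are themselves not checked here.

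Differences among the hairpins themselves were tested with the same fit. Between shRING1B and shBMI1, which target subunits of the same complex, 0 of 35 genes were called, against 0.0134% of all genes, and 2 had an unadjusted p under 0.05, against 9.18%. In the comparison of shEZH2 with shRING1B 4 of 35 had an unadjusted p under 0.05, against 15.6%, and with shBMI1 8 did, against 15.1%. An F test over the 4 hairpins called EZH2 (limma, adjusted p = 0.0374), 1 of 35, against 0.679% of all genes. At an unadjusted p under 0.05 it held 5 of the 35 (14.3%, against 15.3%), namely EZH2, CBX6, PHF19, PCGF6 and SCMH1. The EZH2 call of the F test and that against shRING1B were each lost without any 1 of the 8 arrays.

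Beyond the 42 genes, a list of 32 other Polycomb partners, of which 26 were measured, held 0 calls with each of the 3 hairpins. Over all genes 0.732% were called against shGFP with shEZH2, 0% with shRING1B and 0% with shBMI1. With shEZH2 the widest differences of the list from shGFP were -0.44 for SKP1 and -0.33 for SFMBT1, against 0.30 for ASXL3 and 0.28 for SFMBT2. With shRING1B they were -0.44 for SKP1 and -0.24 for SFMBT1, against 0.54 for ASXL3 and 0.32 for SCML1. With shBMI1 they were -0.19 for SFMBT1 and -0.19 for SKP1, against 0.33 for SFMBT2 and 0.14 for L3MBTL1. ASXL3 had a mean signal in the lowest 10.7% of all genes. No detection values show it to be above background, and its shGFP arrays had an SD of 0.35. SKP1 joins KDM2B in variant PRC1 and also serves in ubiquitin ligases outside Polycomb, and SFMBT1 and SFMBT2 are MBT domain proteins.

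Genes of the activating side were 21 Trithorax and H3K36 writer genes, of which 17 were measured. They also held 0 calls with each hairpin, against 0.732% of all genes with shEZH2, 0% with shRING1B and 0% with shBMI1. Their widest differences with shEZH2 were -0.29 for PAGR1 and -0.16 for KMT2B, against 0.11 for KMT2C and 0.06 for PSIP1. With shRING1B they were -0.17 for SETD2 and -0.12 for KMT2C, against 0.17 for CXXC1 and 0.07 for EP300. With shBMI1 they were -0.13 for NSD1 and -0.06 for DPY30, against 0.09 for CXXC1 and 0.09 for PSIP1. Of 19 listed genes of the SWI/SNF remodellers, which evict Polycomb, 6 were measured and 0 were called, against the same shares of all genes. All 6 had lower values on both shEZH2 arrays than on both shGFP arrays, as did 27% of all genes, with ACTL6A at -0.31 and ARID1A at -0.23.

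The labelled cell type was checked against markers. Of 16 genes listed as keratinocyte or epithelial markers, EPCAM among them, 7 were measured, and 0 of 7 were called against shGFP with any hairpin. Over all genes 0.732% were called with shEZH2, 0% with shRING1B and 0% with shBMI1. Over the 8 arrays KRT5 read 10.1 to 10.6, KRT14 9.04 to 9.72, DSP 11.1 to 11.7 and KRT16 7.22 to 7.86. With shEZH2 both arrays were below both shGFP arrays for KRT5, KRT14, KRT16 and SFN, and above for DSG3, DSP and EPCAM. Over all genes 27% were below in this way and 23.1% above. DSG3, a desmosomal cadherin, averaged 10.35 with shEZH2, 9.34 with shRING1B, 9.44 with shBMI1 and 9.92 with shGFP. It was called higher with shEZH2 than with shRING1B (limma, 1.01, adjusted p = 0.0187, where 0.356% of all genes were called higher) and than with shBMI1 (0.91, adjusted p = 0.022, where 0.692% were), and in the F test (adjusted p = 0.0364). With shRING1B 4 of the 7 (57.1%) had lower values than with shGFP at an unadjusted p under 0.05, against 3.8% of all genes.

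Markers of other cell types were measured for part of each list. DCN, a fibroblast matrix gene, read 8.03 and 7.86 with shEZH2 against 6.94 and 7.08 with shGFP, and was called higher (limma, adjusted p = 0.0109). It was 0.13 higher with shRING1B and 0.45 higher with shBMI1, neither of which passed. DCN and LUM were the 2 of 9 fibroblast markers measured, with a mean of 6.39 and 6.60 with shEZH2, 5.86 and 5.93 with shRING1B, 5.86 and 6.04 with shBMI1, and 5.44 and 5.72 with shGFP. All 6 arrays of the targeting hairpins lay above both shGFP arrays in that mean.

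MLANA, 1 of 6 measured melanocyte markers of 7 listed, averaged 4.83 with shEZH2 and 4.18 with shGFP (limma, adjusted p = 0.046). Of the 6, 3 had a positive and 3 a negative difference from shGFP with shEZH2, at a median of -0.003. The mean signal of MLANA is in the lowest 10.7% of all genes, and no detection values show it to be above background. LUM is likewise in the lowest 12.2%. Of 5 measured leukocyte and 3 measured endothelial markers 0 were called. Over all genes 0.732% were called against shGFP with shEZH2, 0% with shRING1B and 0% with shBMI1. Of the leukocyte markers, CD68 read 10.8 to 11.1 over the 8 arrays, at percentile 97.8 of mean signal. The others lay from percentile 9.51 (LYZ) to 47.4 (CD8A). KDR, an endothelial receptor, had differences of -0.11 with shEZH2, 0.61 with shRING1B and 0.54 with shBMI1. Its arrays read 7.15 and 6.67 with shRING1B, 7.25 and 6.42 with shBMI1, and 6.22 and 6.38 with shGFP. With shRING1B, and also with shBMI1, 2 of the 3 measured endothelial markers had a positive difference and 1 a negative. The part of these genes or of the cells they mark in the Polycomb values was not tested.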

How the data were processed

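Biotin-labelled targets made from total RNA of SCC13 cells were hybridised to 8 whole-transcript arrays, 2 for each of 4 hairpins. The authors deposited log2 expression per probe set, made with RMA per the submitters' processing notes. Those notes list limma too. For the versions, the probe set library and the genome build, the entry is "not given in the sources used here". The RMA step pulls the arrays to 1 distribution, and array ratios tend to understate true ratios. Of 53617 probe sets, 16098 had 1 gene symbol in the platform annotation, 0 had several and 37519 had none. For the 779 genes with several probe sets, the one with the highest mean over 8 arrays was taken. Array medians ran from 5.49 to 5.52, values from 1.36 to 14.5, and correlations between arrays were 0.995 to 0.996 within groups and 0.992 to 0.996 between groups. No detection values were given, and the number of arrays limits the precision.

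Group means were fitted to all 8 arrays (limma 3.58.1, R 4.3.3; 4 residual degrees of freedom, empirical Bayes), with 6 two-sided comparisons and an F test, each adjusted by Benjamini-Hochberg over 14884 genes, and 95% intervals from the moderated fit. The fit was tested on simulated data. A first version, with noise from each gene's own residual SD, missed the recovery set for it, and the noise was then drawn from limma's moderated SD, so no power is claimed from it. Tables and figures used Python 3.11.15, pandas 2.3.3 and matplotlib 3.10.9. The genes and lists were chosen with earlier results of these data known. Values of each array were to be printed for the targeted genes, their paralogs, the PRC2 core, called genes, genes with an unadjusted p under 0.01 against shGFP, and the 3 largest increases and decreases in each comparison with shGFP, which gave 20 genes. For each other list, the called genes and the 2 largest changes each way were named. Alternatives covered normalization, dim genes, probe sets, variance, array weights, the arrays in the fit and the replicate number.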

Additional observations from a re-analysis of the deposited data

How the results depend on the processing

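The EZH2 difference between shEZH2 and shGFP could move under only some of the 17 alternatives. It was -0.86 under quantile normalization and -0.95 under median centring. When 1 array of shEZH2 or shGFP was left out, it was -0.98 to -0.84 on the log2 scale. The other alternatives left it at -0.91, since they do not change the 2 group means compared. The adjusted p was 0.179 and 0.152 without shEZH2 replicate 1 or 2, and 0.0864 and 0.119 without shGFP replicate 1 or 2. Leaving out an array leaves that group with 1, whose spread is assumed to be that of the other groups. The number of Polycomb genes called was 1 in the comparison of shEZH2 with shGFP, 2 without the dimmest 30% of genes or with the trended, robust variance (CBX6 added), and 0 to 1 with 1 array left out. Against shRING1B it was 1, 2 with the trended, robust variance (SCMH1 added), 0 in a fit of only the arrays compared, and 0 with any 1 array left out. Against shBMI1 it was 1, 3 with the trended, robust variance (PHF19 and PCGF6 added), 0 in a fit of only the arrays compared, and 0 to 1 with 1 array left out. For the F test it was 1, 0 without the shEZH2 arrays and 0 with any 1 array left out. In a fit without other arrays fewer arrays estimate the spread; for the variance model the cause was not tested. The other 3 comparisons gave 0 throughout. Over all genes, the count called with shEZH2 against shGFP was 109, 409 without the dimmest 30%, 648 with the trended, robust variance, 174 with array weights, 39 with only the arrays compared and 169 for protein-coding genes alone, an alternative chosen after seeing the data; it was 0 without either shEZH2 array, and 19 and 6 without shGFP replicate 1 or 2. Deviations of same-numbered arrays from their group means correlated at 0.000656 to 0.248, so the numbers were not taken to pair the arrays; with that number as a replicate block the EZH2 difference was -0.91 (adjusted p = 0.00979), the count over all genes was 108 and no call on the 35 genes changed. The direction of the difference from shGFP held under every alternative for 27 of the 35 genes with shEZH2, 12 with shRING1B and 15 with shBMI1. Alternatives that change only the spread or the genes tested could not turn a direction, so these counts rest on the remaining ones.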
